A study of Mus musculus with 91 samples.

Results

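The nuclear genes of the mitochondrial respiratory chain and of the ATP synthase were followed in the brains of APP/PS1 mice, a double transgenic model of amyloid deposition, and of their wild-type (WT) littermates. The members are all genes whose annotated symbol begins with Nduf, Sdha, Sdhb, Sdhc, Sdhd, Uqcr, Cox4, Cox5, Cox6, Cox7, Cox8 or Atp5. Of 12115 genes that the array annotation names, 84 met this rule, and 83 of them had a probe above background (detection p under 0.05 on at least 9 arrays) in hippocampus and also in frontal cortex. They are 33 genes of complex I (counting Ndufs5-ps, which meets the rule by its symbol but which RefSeq lists as a transcribed pseudogene), 3 of complex II, 7 of complex III, 16 of complex IV, 15 of the ATP synthase (complex V) and 9 assembly factors whose symbols begin with Ndufaf or Sdhaf. The remaining gene, Ndufab1, was detected on 1 of 46 hippocampal and 1 of 45 cortical arrays.

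Complex I takes electrons from NADH and complex II takes them from succinate, complex III passes them to cytochrome c, and complex IV (cytochrome c oxidase) hands them to oxygen, while complex V uses the resulting proton gradient to make ATP. Each complex is built from catalytic core subunits and many small accessory subunits, and dedicated assembly factors insert its cofactors. The catalytic core of complex IV is encoded by mitochondrial DNA, and its subunits are not among the members. Some complex IV subunits exist as a ubiquitous isoform and as a second isoform known mainly from heart and skeletal muscle, among them Cox6a2, Cox7a1 and Cox8b, and Cox6b2 is known mainly from testis. Neurons depend strongly on oxidative phosphorylation.

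The groups were: APP/PS1 mice given an antisense oligonucleotide (ASO) against the microglial receptor gene Cd33 (CD33 ASO, 12 hippocampal and 11 cortical arrays), APP/PS1 mice given a non-target control oligonucleotide (CON ASO, 13 and 13 arrays), APP/PS1 mice given the vehicle PBS (9 and 9 arrays) and WT mice given PBS (12 and 12 arrays). An osmotic pump delivered the agents into the right lateral ventricle, the ASOs at 50 µg per day for 14 days from 18 weeks of age, and the left hippocampus and frontal cortex were taken at 22 weeks. All mice, the WT mice included, therefore carried a pump and were housed singly after surgery. Both transgenes of this model are driven by a Thy1 promoter element, which is active mainly in neurons. The 91 arrays came from 47 mice, 44 of them measured in both tissues, and replicates are separate mice.

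Each array detected between 12951 and 13905 probes in hippocampus and between 12555 and 13802 in cortex. Levels below are log2 signals normalised within a tissue, so that a difference of 1 is a doubling, and each gene is represented by its brightest probe. Levels of different genes are not compared, because probes differ in brightness. Each chip held arrays of all 4 groups but of only 1 tissue, 6 chips per tissue. Each mouse also carried 1 of 4 day numbers, which served only as a block in a processing alternative. Day accounted for at most 29.5% of a member's variance within groups in hippocampus and 24.75% in cortex. The hippocampal field markers Prox1, Wfs1, Bok and C1ql2 had a group mean log2 signal between 10.81 and 10.85 in hippocampus and between 8.76 and 8.85 in cortex. In the hippocampus, Cd33 itself lay between 5.07 and 6.38 with CD33 ASO and between 6.33 and 6.89 with CON ASO, and the corresponding cortical ranges were 5.05 to 7.1 and 6.62 to 7.55. The lowest of these cortical values, 5.05, came from the mouse described next.

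The labels of 1 mouse in the CD33 ASO group were in doubt (replicate 3 in both tissues). Its Thy1 signal was 14.02 in hippocampus and 14.1 in cortex, whereas all other APP/PS1 mice lay between 14.74 and 14.92 in hippocampus and between 14.77 and 14.93 in cortex. WT mice lay between 13.96 and 14.18 in hippocampus and between 14.08 and 14.24 in cortex. Its signal of Cst7, a marker of plaque-associated microglia, was 5.37 and 5.33, also outside the range of the other APP/PS1 mice (7.68 to 9.29 and 9.01 to 10.84). The mouse was kept where its label put it. The main differences and counts of members that involve the CD33 ASO group are given with and without it. The levels of that group, the percentages of all probes and the marker counts include it. Intervals of single genes, correlations, counts of mice and most counts under processing alternatives also include it. Leaving it out of the fits with the chip as a block or with a covariate, of the interval counts and of the tissue count was chosen after seeing the data.

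To show how the promoters of these genes compare, the 150 bases before the annotated start were read from the RefSeq table (GRCm38.p6) for the 71 of 83 members that it lists. Sequences follow for 2 isoforms of the same complex IV subunit, Cox8a and Cox8b, and for Atp5b and Ndufa9, which passed as lower in APP/PS1 mice in both tissues, though both calls were lost under some processing alternatives. They are written 5′ to 3′ on the strand of the gene, and capitals mark the motif GGAAGT, the box CCAAT or the motif GGGCGG on either strand.
Cox8a (chr19:7217617-7217766, minus strand): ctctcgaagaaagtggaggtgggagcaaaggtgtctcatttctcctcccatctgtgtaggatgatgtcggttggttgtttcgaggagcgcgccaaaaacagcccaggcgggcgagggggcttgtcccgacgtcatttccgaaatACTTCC
Cox8b (chr7:140900447-140900596, minus strand): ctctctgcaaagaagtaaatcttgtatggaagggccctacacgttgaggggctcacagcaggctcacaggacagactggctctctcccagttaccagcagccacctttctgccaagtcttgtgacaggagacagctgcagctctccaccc
Atp5b (chr10:128083157-128083306, plus strand): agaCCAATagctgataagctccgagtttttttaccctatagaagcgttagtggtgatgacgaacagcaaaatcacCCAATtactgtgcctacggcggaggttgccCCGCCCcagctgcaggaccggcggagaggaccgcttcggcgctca
Ndufa9 (chr6:126849145-126849294, minus strand): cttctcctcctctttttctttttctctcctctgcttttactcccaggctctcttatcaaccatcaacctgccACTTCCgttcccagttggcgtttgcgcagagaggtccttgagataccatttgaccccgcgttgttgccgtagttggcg
The Cox8a window held 10 CG dinucleotides and the Cox8b window 1, at the same GC content of 55.3%. The Atp5b window held 11 CG dinucleotides and 2 copies of CCAAT, and the Ndufa9 window held 7 and a copy of the GGAAGT motif on the strand opposite to the gene.

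Over all 76 windows of members, GC content had a median of 60%, against 54% over the 32851 windows in the table, and the number of CG dinucleotides a median of 10.5, against 4.0. GGAAGT, the core of the sites that ETS factors such as GABP bind, was present in 25% of the members' windows and 13.6% of all windows. CCAAT was present in 27.6% of members' windows and 24.5% of all, and GGGCGG, the core of Sp1 sites, in 32.9% and 28.6%. The consensus of NRF1, a regulator of many nuclear genes for mitochondrial proteins, was present in 2.63% and 0.645%. The first share is only 2 of 76 windows, too few to compare. The E-box CANNTG was present in 38.2% and 47.7%. Both strands were searched, and a match is a description of the sequence and shows no binding.

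In frontal cortex, APP/PS1 mice given PBS had mostly small differences in these genes from WT mice given PBS. Cox6a2, the muscle-type isoform of a complex IV subunit, was the only member that rose, while 8 members fell: Ndufa5, Ndufa9 and Ndufb6 of complex I, Atp5b, Atp5g1 and Atp5o of complex V, and the complex II assembly factors Sdhaf3 and Sdhaf4. These 9 of 83 members (10.8%) passed limma's test at a Benjamini-Hochberg adjusted p under 0.05, against 19.3% of all 14346 probes tested. The 1 rise stands beside 8.53% of probes that were higher and the 8 falls beside 10.7% that were lower. The members' median difference was -0.039, and that of all probes was -0.034.

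Cox6a2 had log2 signals of 10.17, 10.34 and 10.67 (lowest, median and highest) in the 9 APP/PS1 PBS cortices, against 9.8, 9.95 and 10.12 in the 12 WT cortices. The groups did not overlap. The difference was 0.42 ± 0.08 (SE, adjusted p = 4.69e-05, limma), and it was positive on 6 of 6 chips, between 0.27 and 0.59. Cox6a1, the ubiquitous isoform of the same subunit, differed by -0.01 ± 0.03 (adjusted p = 0.786), with APP/PS1 PBS cortices between 13.78 and 13.93 and WT cortices between 13.76 and 13.98. A second, slightly dimmer Cox6a1 probe differed by 0.07 ± 0.03 (adjusted p = 0.0553), so its probes did not agree in direction.

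Sdhaf4, which promotes assembly of the flavin-bearing subunit of complex II, lay at 10.3, 10.37 and 10.55 in APP/PS1 PBS cortices and at 10.37, 10.6 and 10.74 in WT cortices. The ranges overlapped, but the medians were well apart, and the difference was -0.22 ± 0.04 (adjusted p = 0.0002), negative on 6 of 6 chips. Sdhaf3, which helps to mature the iron-sulphur subunit, lay at 8.1, 8.27 and 8.63 in APP/PS1 PBS cortices and at 8.39, 8.51 and 8.77 in WT cortices (difference -0.24 ± 0.09, adjusted p = 0.0442). The 3 subunits of complex II among the members did not pass the test: Sdhb differed by -0.06 (adjusted p = 0.51), Sdhc by 0.01 (0.932) and Sdhd by -0.18 (0.605).

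In complex V, Atp5b encodes the catalytic beta subunit, Atp5o a part of the peripheral stalk and Atp5g1 an isoform of the ring subunit c. Atp5o lay at 9.43, 9.58 and 9.76 in APP/PS1 PBS cortices and at 9.61, 9.77 and 10.01 in WT cortices (difference -0.19 ± 0.06, adjusted p = 0.0101). Atp5g1 lay at 12.97, 13.07 and 13.16 in APP/PS1 PBS cortices and at 13.07, 13.19 and 13.31 in WT cortices (difference -0.11 ± 0.04, adjusted p = 0.0267). Both pairs of ranges overlapped. The other ring isoforms differed by -0.03 (Atp5g2, adjusted p = 0.566) and -0.06 (Atp5g3, adjusted p = 0.146).

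Atp5b lay at 14.67, 14.75 and 14.77 in APP/PS1 PBS cortices, against 14.67, 14.84 and 14.93 in WT cortices. The difference of -0.09 ± 0.02 (adjusted p = 0.00641) was small, and the lowest cortex of each group had the same level. Rounded as printed here, Atp5b took only 11 distinct values on the 45 cortical arrays and 8 on the 46 hippocampal arrays. Its differences in both tissues therefore rest on few distinct rounded levels, and distinct unrounded values were not counted. When arrays were scaled by their medians in place of quantiles, its difference was -0.07 and no longer passed (adjusted p = 0.259).

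The 3 complex I genes encode accessory subunits. Ndufa5 lay at 12.54, 12.63 and 12.76 in APP/PS1 PBS cortices and at 12.6, 12.76 and 12.88 in WT cortices (difference -0.12 ± 0.04, adjusted p = 0.0175). Ndufa9 lay at 12.29, 12.37 and 12.5 in APP/PS1 PBS cortices and at 12.39, 12.49 and 12.62 in WT cortices (difference -0.09 ± 0.04, adjusted p = 0.0499). Ndufb6 differed by -0.10 ± 0.04 (adjusted p = 0.049). Ndufa9, Ndufb6 and Sdhaf3 thus stood at the threshold. With 1 array left out, the calls were lost in 14 of 21 fits for Ndufa9, 16 of 21 for Ndufb6 and 15 of 21 for Sdhaf3 (adjusted p up to 0.104, 0.112 and 0.0938). The Atp5g1 call was lost in 3 of 21 (without WT PBS replicate 2 or APP/PS1 PBS replicate 7 or 9, adjusted p up to 0.0616), and the other 5 cortical calls in none. A second, dimmer probe differed by -0.16 ± 0.24 for Ndufa5 and by -0.08 ± 0.10 for Ndufb6 (adjusted p = 0.702 and 0.618).

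By complex, the median cortical difference between genotypes was -0.062 for complex I (3 of 33 lower), -0.06 for complex II (0 of 3), -0.024 for complex III (0 of 7), -0.007 for complex IV (1 of 16 higher), -0.061 for complex V (3 of 15 lower) and -0.029 for assembly factors (2 of 9 lower). Among subunits that did not pass, Ndufv1 of complex I differed by -0.04, Uqcrc1 of complex III by -0.07, Cox4i1 of complex IV by 0.05 and Cox5a by -0.09 (adjusted p between 0.0719 and 0.444). The interval of 2 SE either side of the difference lay within 0.2 of zero for 55 of the 83 members. In whole tissue, fewer cells of a type and less RNA per cell cannot be told apart.

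**Figure D1:**
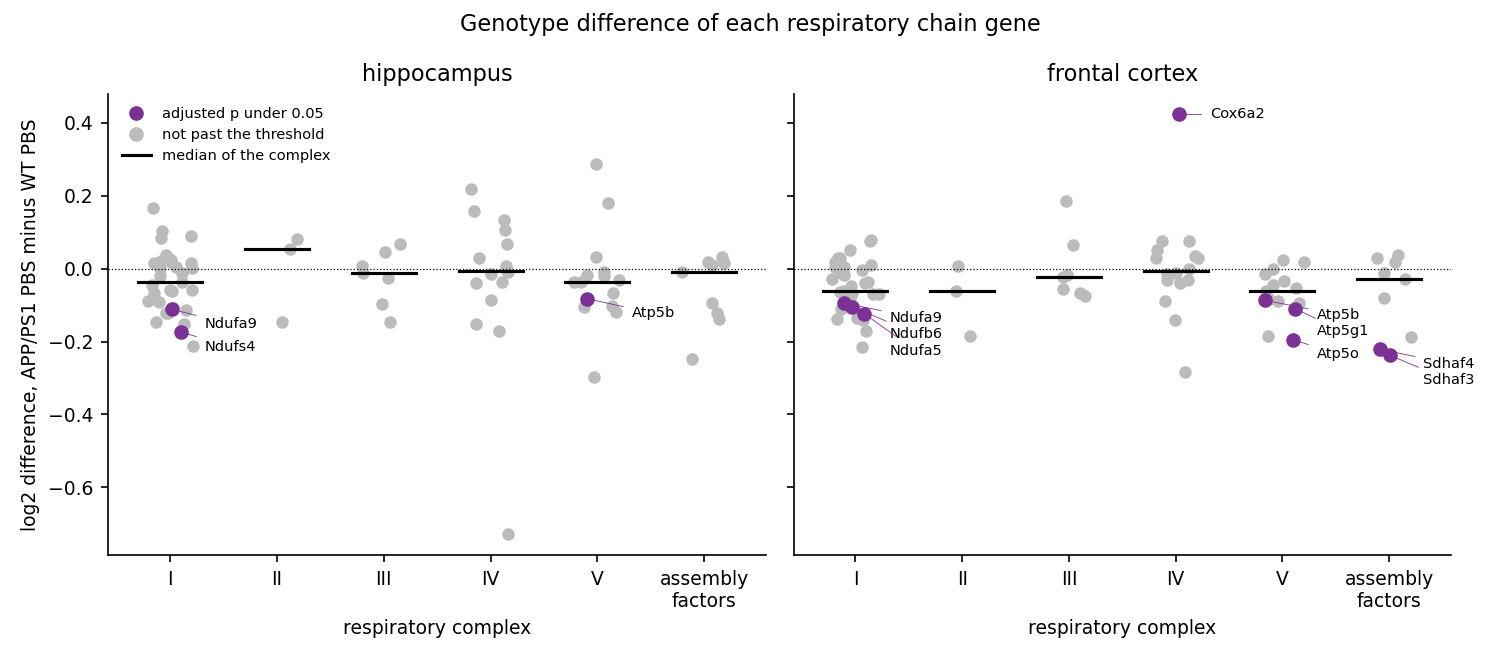
Log2 difference of each of the 83 genes between APP/PS1 PBS and WT PBS mice, by complex, in hippocampus (left) and frontal cortex (right); coloured points passed limma's adjusted p threshold of 0.05 and bars are medians. Most points lie close to 0, with Cox6a2 (0.42) alone above it among the cortical genes that passed.

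Markers of several cell types also differed between these genotypes. In cortex, 9 of 9 microglial markers tested were higher in APP/PS1 PBS mice (median 1.6), 6 of 9 astrocyte markers were higher (0.21), 2 of 5 endothelial markers (Flt1 and Tek) were higher (0.13), 1 of 7 oligodendrocyte markers (Cldn11) was higher (0.018), and 1 of 9 neuronal markers, Syt1, was lower (median -0.032). In hippocampus, the numbers were 7 of 9 microglial markers (median 1.0), 1 of 9 astrocyte markers (0.1), 0 of 5 endothelial markers (-0.097), 0 of 7 oligodendrocyte markers (-0.015) and 0 of 9 neuronal markers (0.0073). Their part in the differences of the respiratory chain genes was not tested.

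In hippocampus, 3 of 83 members differed between APP/PS1 PBS and WT PBS mice, all lower, against 2.49% of all 14449 probes that passed and 0.671% that passed as lower. Ndufs4, an accessory subunit of complex I, lay at 11.57, 11.66 and 11.81 in APP/PS1 PBS hippocampi and at 11.68, 11.83 and 12 in WT hippocampi (difference -0.17 ± 0.04, adjusted p = 0.00868, limma). Atp5b lay at 14.61, 14.74 and 14.81 in APP/PS1 PBS hippocampi and at 14.74, 14.81 and 14.88 in WT hippocampi (difference -0.08 ± 0.02, adjusted p = 0.0227). Ndufa9 lay at 12.28, 12.32 and 12.43 in APP/PS1 PBS hippocampi and at 12.37, 12.46 and 12.52 in WT hippocampi (difference -0.11 ± 0.03, adjusted p = 0.0419). Each of these differences was negative on 6 of 6 chips, and each pair of ranges overlapped. The hippocampal call of Ndufa9 stood at the threshold: it was lost in 15 of 21 fits that each left out 1 array (adjusted p up to 0.101) and under 5 of 12 processing alternatives (up to 0.314).

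The Ndufs4 result rests on its brightest probe. Its 3 other probes differed by 0.02 ± 0.11, 0.02 ± 0.11 and 0.15 ± 0.16, none with an adjusted p under 0.689. The mean over its probes differed by 0.00 (adjusted p = 0.991). The other probes had larger SEs than the 0.04 of the brightest probe. Chip accounted for 64.8% to 71.4% of their variance within groups, against 36.1% for the brightest probe. In these fits without a chip block, the other probes are too imprecise to decide the result. Their differences with the chip as a block were not read. The Ndufs4 call thus has no support from a second probe. The hippocampal call of Atp5b was lost under 4 of 12 processing alternatives, with median scaling among them (-0.07, adjusted p = 0.743), and in 1 of 21 fits that left out an array (without APP/PS1 PBS replicate 7, adjusted p = 0.0758). Next in order of p came Ndufa4 (-0.11, adjusted p = 0.0628), now assigned to complex IV though its symbol places it here with complex I, and Atp5g3 (-0.11, adjusted p = 0.0688). Cox6a2 lay at 9.58, 9.73 and 10 in APP/PS1 PBS hippocampi and at 9.15, 9.53 and 9.91 in WT hippocampi, and its difference of 0.15 did not pass.

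With the chip as a block, 18 cortical members (1 higher, 17 lower, beside 23.7% of all probes) and 9 hippocampal members (all lower, beside 4.78%) passed. No member's genotype difference differed between the tissues when that was tested itself (0 of 83, beside 3.38% of probes, and 3 members beside 15.6% of probes at an unadjusted p under 0.05). For Cox6a2, the difference in hippocampus minus that in cortex was -0.28 ± 0.12 (adjusted p = 0.231), and for Cox7b it was 0.51 (adjusted p = 0.15).

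**Figure D2:**
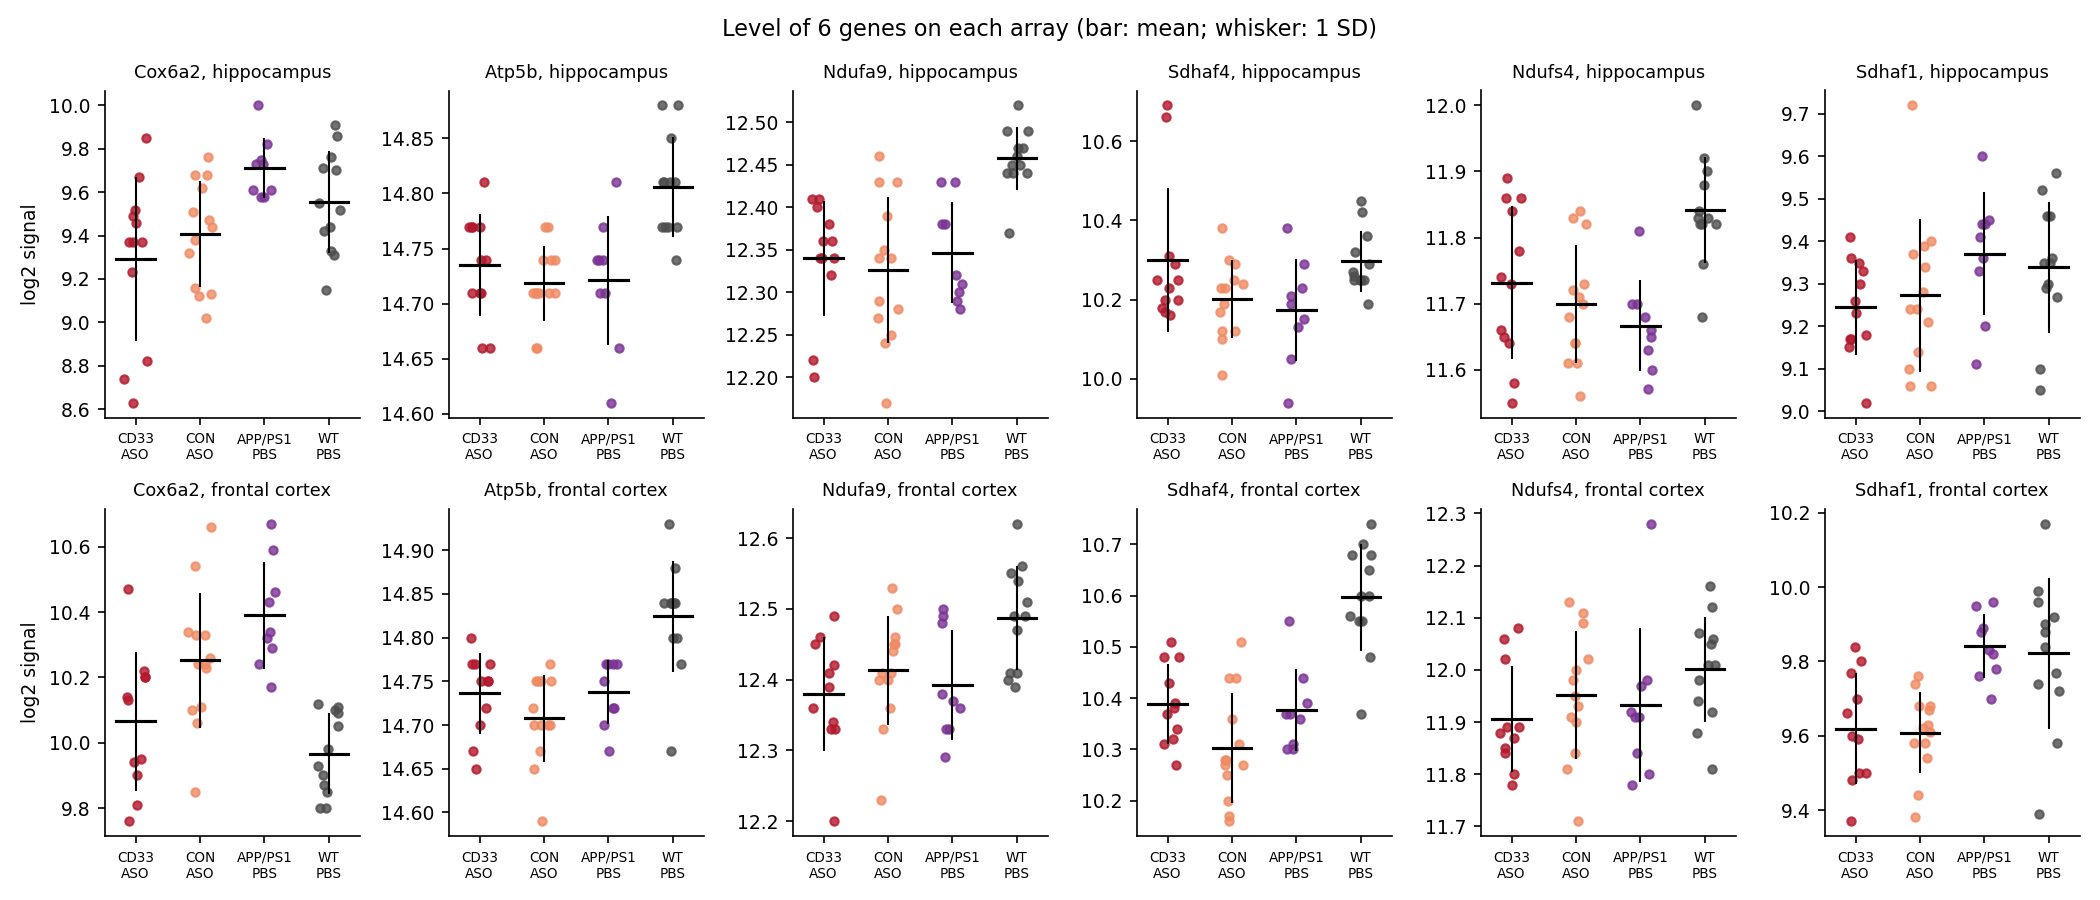
Log2 signal of 6 genes on each array, in hippocampus (top) and frontal cortex (bottom), for CD33 ASO, CON ASO and PBS in APP/PS1 mice and PBS in WT mice; bars are means and whiskers 1 SD. The cortical Cox6a2 points of APP/PS1 PBS mice all lie above those of WT mice.

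Genes outside the respiratory chain that build, feed or empty it were read beside the members, and their counts stand beside the same 8.53% of cortical probes that were higher and 10.7% that were lower. In cortex, APP/PS1 PBS mice were lower than WT PBS mice in 3 of 27 other assembly factors (Coa3 and Cox15 for complex IV, Ttc19 for complex III), with a median of -0.093. Of 12 genes of electron carriers and coenzyme Q synthesis, Coq7 (-0.18) and Coq9 (-0.20) were lower, with a median of -0.026. Of 15 genes of the tricarboxylic acid cycle, which supplies NADH and succinate, Pdha1 (-0.11) and Idh3a (-0.12) were lower and Suclg2 (0.21) was higher. Ckmt1 (-0.26, adjusted p = 1.95e-07), a mitochondrial creatine kinase, and Vdac1 (-0.20), an outer membrane channel, were lower among 6 carriers and channels of ATP and phosphate.

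Of 14 glycolytic genes, 2 were higher in APP/PS1 PBS cortices (Hk2 by 1.22 and Aldoc by 0.16) and 3 were lower, Pfkp (-0.24) and Ldha (-0.11) among them. Of 13 regulators of mitochondrial gene expression, Tfb2m and Gabpb1 were lower, and 0 of 6 mitochondrial antioxidant enzymes passed the test. Of the cytosolic ribosomal proteins, 0 of 55 were higher in APP/PS1 PBS hippocampi (median 0.036) and 31 of 56 in cortices (0.15). In hippocampus, Ecsit (-0.19), a complex I assembly factor, and Etfa (-0.22), an electron transfer flavoprotein subunit, were lower and Hk2 (0.44) was higher.

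The non-target oligonucleotide was compared with the vehicle, both given by pump. In hippocampus, 0 of 83 members passed limma's test between CON ASO and PBS in APP/PS1 mice, beside 1.29% of all probes, and 5 members (beside 13.3% of probes) had an unadjusted p under 0.05. The smallest p-values belonged to Cox6a2 (-0.30 ± 0.11, adjusted p = 0.184), Ndufa12 (0.10, adjusted p = 0.188), Cox8b (1.45 ± 0.58, adjusted p = 0.238) and Cox7a1 (0.35, adjusted p = 0.245). In cortex, 1 of 83 members passed, a lower one, beside 2.63% of probes that passed and 1.48% that were lower.

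That member was Sdhaf1, which helps to insert iron-sulphur clusters into complex II. It lay at 9.38, 9.62 and 9.76 in the 13 CON ASO cortices, against 9.7, 9.83 and 9.96 in the 9 PBS cortices of APP/PS1 mice. The ranges overlapped only at their edges, and the difference was -0.23 ± 0.06 (adjusted p = 0.0317, limma), negative on 6 of 6 chips. With 1 array left out, this call was lost in 4 of 22 fits (adjusted p up to 0.0689). In the same comparison, 3 of 7 oligodendrocyte markers (Mbp, Mag and Cnp) were lower, with a median of -0.21, and their part in the Sdhaf1 difference was not tested.

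The comparison of CD33 ASO with CON ASO, which share the chemistry and differ in their target, gave 0 of 83 members in hippocampus (beside 0.118% of probes) and 0 of 83 in cortex (beside 0.153%). An unadjusted p under 0.05 was reached by 3 members in each tissue, beside 4.28% of probes in hippocampus and 9.79% in cortex, and without the mouse of doubtful label these counts were again 0 and 3 in each tissue. The smallest were Cox7a2l, which takes part in joining complexes III and IV, in hippocampus (0.12 ± 0.05, adjusted p = 0.787), and Ndufa6, a complex I accessory subunit, in cortex (-0.12 ± 0.04, adjusted p = 0.195). Without that mouse, the differences were 0.12 (adjusted p = 0.873) and -0.13 (adjusted p = 0.176).

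The intervals of these differences were read against a limit of 0.2. That limit is wider than several genotype calls, such as -0.12 for Ndufa5 in cortex. An interval within it need not exclude a difference of that size. The interval of 2 SE either side lay within 0.2 of zero for 56 members in hippocampus and 59 in cortex (54 and 57 without the doubtful mouse). For Atp5b it ran from -0.02 to 0.06 in hippocampus and from -0.01 to 0.07 in cortex, and for Cox4i1 from -0.09 to 0.05 and from -0.09 to 0.02. The few distinct values of Atp5b limit what its narrow interval shows. Cox6a2 lay at 9.76, 10.13 and 10.47 in CD33 ASO cortices and at 9.85, 10.24 and 10.66 in CON ASO cortices, and its interval ran from -0.33 to -0.04 (adjusted p = 0.379, and 0.345 without the doubtful mouse). The least precise was Cox8b in hippocampus, from -1.64 to 0.51 around a difference of -0.57 (-0.54 without that mouse).

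Against PBS, CD33 ASO gave 0 of 83 members in hippocampus by limma's test (beside 0.505% of probes, with 13 members and 12.5% of probes at an unadjusted p under 0.05) and 1 of 83 in cortex, lower (beside 1.36% of probes, and 0.843% that were lower). Without the doubtful mouse, the counts were 0 in hippocampus, with 11 members at an unadjusted p under 0.05, and 1 in cortex. The cortical member was Cox6a2, at 9.76, 10.13 and 10.47 in the 11 CD33 ASO cortices, against 10.17, 10.34 and 10.67 in the 9 PBS cortices. The ranges overlapped, the difference was -0.32 ± 0.08 (adjusted p = 0.0201, limma), and without that mouse it was -0.31 (adjusted p = 0.0312). With 1 array left out, the call was lost in 2 of 20 fits (adjusted p up to 0.0531). In hippocampus, Cox6a2 lay at 8.63, 9.37 and 9.85 with CD33 ASO, against 9.58, 9.73 and 10 with PBS, a difference of -0.42 ± 0.11 (adjusted p = 0.0763, and 0.0814 without that mouse). The PBS mice of this comparison are also those of the genotype comparison and of the CON ASO comparison, so these 3 comparisons share samples.

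Beside these values, 2 of 7 oligodendrocyte markers in hippocampus and 3 of 7 in cortex were lower with CD33 ASO than with PBS (medians -0.3 and -0.28), and their part in the Cox6a2 difference was not tested. With the chip as a block, 3 hippocampal members passed, Cox6a2 among them (-0.45, adjusted p = 0.029), beside 1.27% of probes, and 2 cortical members, beside 2.02%. Without the doubtful mouse these counts were 2 and 1, and the hippocampal difference of Cox6a2 was -0.48 (adjusted p = 0.0243). The difference between tissues was tested for 2 of the ASO comparisons, and not for CD33 ASO against PBS: 0 members passed for CON ASO against PBS (beside 0.0672% of probes, and 3 members beside 10.7% of probes at an unadjusted p under 0.05), and 0 for CD33 ASO against CON ASO (beside 0% of probes, and 7 members beside 9.17% of probes at an unadjusted p under 0.05), the last 2 counts being the same without that mouse.

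The signals of many members, each read by its brightest probe, followed the chip on which an array lay. Probes of 1 gene did not always agree in this. In cortex, the chip share was 1.95% for the brightest Ndufaf5 probe and 80.3% for the other. For Ndufs4 it was 25.9% for the brightest probe and 63.2% to 73.9% for the others, whereas the Sdhb probes had 61.7% and 56.2%. Why some probes followed the chip and others did not was not tested. Chip accounted for over 50% of the variance within groups for 13 members in hippocampus (15.7%, beside 7.61% of all probes) and 19 in cortex (22.9%, beside 8.87%). Among the highest shares in cortex were those of Sdhd, a membrane anchor of complex II (82.67%), of Ndufb9 (82.45%), Ndufb2 (81.06%) and Ndufb10 (80.62%) of complex I, and of Uqcrb of complex III (80.48%). The mean deviation of these 19 cortical members from their group means was -0.36 on chip 1, 0.26 on chip 2 and -0.29 on chip 6, while the other 64 members stayed between -0.01 and 0.02. In hippocampus, the 13 members ran from -0.50 on chip 12 to 0.27 on chip 8, and the others from -0.02 to 0.04.

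**Figure D3:**
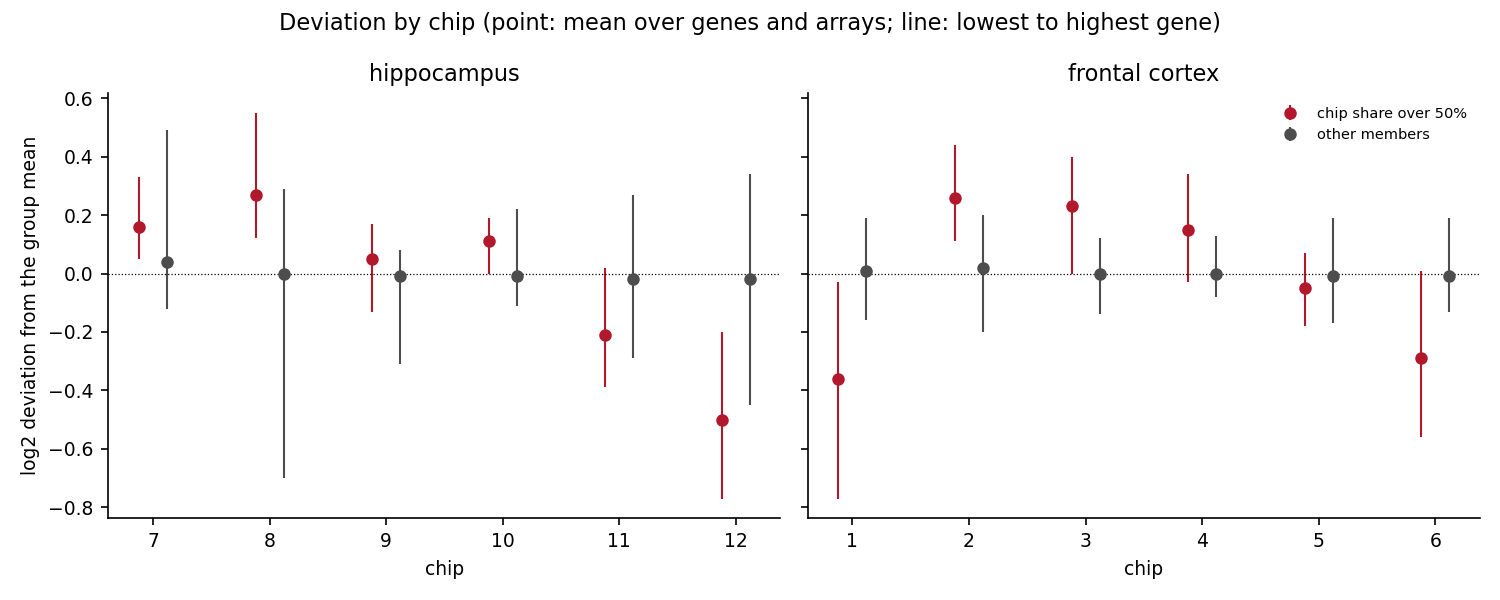
Mean log2 deviation from the group mean on each chip, for members with over 50% of their within-group variance between chips and for the other members, in hippocampus (left) and frontal cortex (right); lines run from the lowest to the highest gene. The first set moves between -0.50 and 0.27 in hippocampus while the other members' means stay near 0.

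For the comparison of tissues, both tissues were normalised together, so levels here differ slightly from those given elsewhere. Between the tissues, 45 of 83 members differed in WT mice given PBS, 8 higher and 37 lower in hippocampus than in cortex, beside 55.5% of all 14884 probes (29.3% higher and 26.2% lower). The members' median difference was -0.056 and that of all probes 0.016. In the APP/PS1 mice, 33 members differed with CD33 ASO (32 without the doubtful mouse, beside 48.9% of probes), 49 with CON ASO (57.6%) and 38 with PBS (50.7%). When arrays were scaled by their medians, the split in WT mice was 21 higher and 24 lower. Chip and tissue cannot be told apart here, and the members that followed the chip bear on the count: of the 19 followers 18 were lower in hippocampus and 0 higher (median -0.76), whereas of the other 64 members 8 were higher and 19 lower (median -0.028).

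The members with the largest falls were followers. Uqcrb lay at 8.92, 9.88 and 10.24 in WT hippocampi and at 10.03, 10.84 and 11.2 in WT cortices, a difference of -0.97 ± 0.17. Atp5a1, the alpha subunit of the ATP synthase, differed by -1.09 ± 0.17, and Sdhd by -1.04 ± 0.16. All 3 were lower in hippocampus in 12 of 12 WT mice. Several subunits that did not follow the chip showed small differences: Ndufv1 by -0.02 (adjusted p = 0.623), Uqcrc1 by 0.07 (0.053) and Atp5b by 0.02 (0.512), while Cox4i1 passed with -0.13 (9.64e-05).

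**Figure D4:**
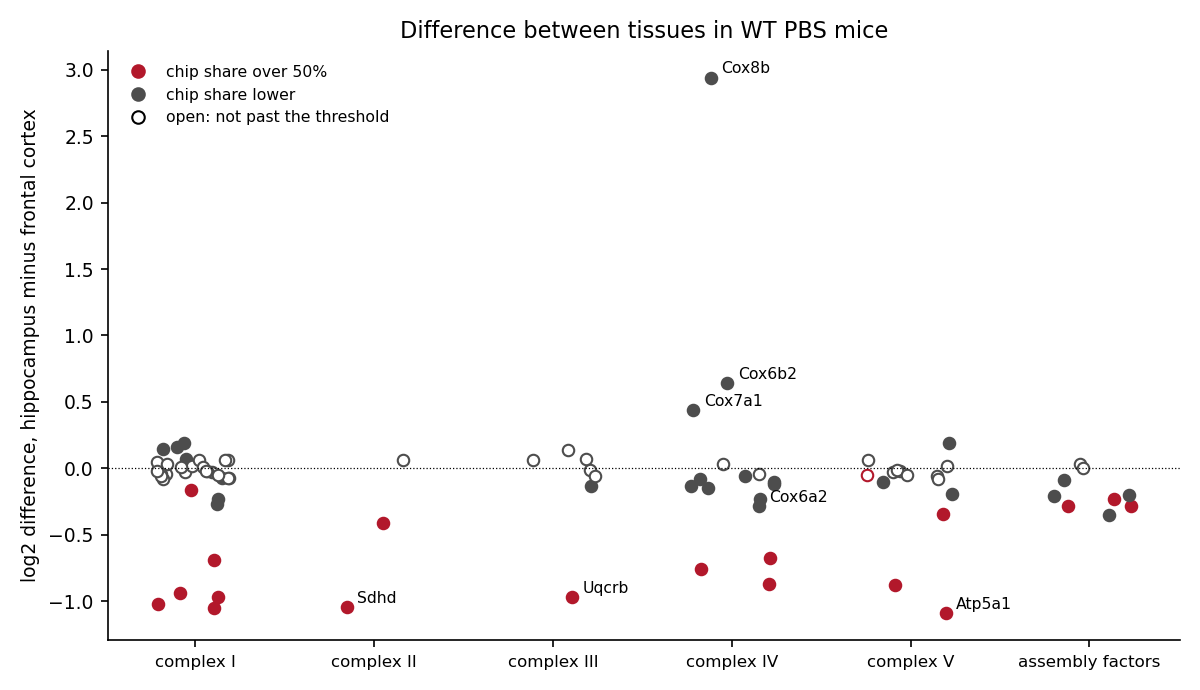
Log2 difference between hippocampus and frontal cortex in WT PBS mice for each of the 83 genes, by complex; red points have over 50% of their cortical within-group variance between chips, and open points did not pass the threshold. Cox8b stands at 2.94, a difference in measured signal from cortices of which 3 of 12 detected it, and the lowest points, down to -1.09 for Atp5a1, are red.

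The tissue isoforms Cox8b, Cox6b2 and Cox7a1 of complex IV were higher in hippocampus. Cox8b was detected in 12 of 12 WT hippocampi but in 3 of 12 WT cortices, so most of its cortical signals were not above background and the size of its difference is uncertain. It lay at 5.72, 9.06 and 9.87 in WT hippocampi and at 4.9, 5.35 and 5.97 in WT cortices, a difference in measured signal of 2.94 ± 0.36 (adjusted p = 3.72e-11, limma with the mouse as a random block), and it was higher in hippocampus in 12 of 12 WT mice. In APP/PS1 mice given PBS, it was detected in 9 of 9 hippocampi and 0 of 9 cortices. Its mean log2 signal was 7.55 in these hippocampi, and the upper bound set for the cortices had a mean of 5.44. By these means its level was at least 4.32-fold higher in hippocampus. That fold makes no allowance for the wide spread among hippocampi described below, and is not a lower limit for each mouse. Cox6b2 was higher by 0.64 ± 0.15 (adjusted p = 0.000203) and Cox7a1 by 0.44 ± 0.10 (adjusted p = 0.000106) in WT mice.

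Cox6a2 was lower in hippocampus. It lay at 9.23, 9.6 and 9.98 in WT hippocampi and at 9.73, 9.89 and 10.07 in WT cortices, a difference of -0.28 ± 0.08 (adjusted p = 0.00214). It was lower in hippocampus in 10 of 12 WT mice, in 10 of 10 mice with CD33 ASO, in 13 of 13 with CON ASO and in 9 of 9 APP/PS1 mice with PBS. Sdhaf1 was also lower in hippocampus, with a difference of -0.35 ± 0.06 (adjusted p = 1.07e-07), and neither gene was among the followers of the chip.

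The level of Cox8b varied widely among hippocampi. On the scale normalised within hippocampus it lay at 6.79, 8.06 and 10.66 with CD33 ASO, at 7.18, 8.69 and 10.56 with CON ASO, at 5.89, 6.73 and 9.45 in APP/PS1 mice with PBS and at 5.61, 8.98 and 9.8 in WT mice with PBS. All 4 groups overlapped widely. The mean of 8 choroid plexus markers, genes of the ventricular epithelium that lies against the hippocampus (Ttr, Kl and others), ran from 6.59 to 11.13 over the same 46 arrays with a median of 9.21. In cortex, the mean of the 5 markers tested there ran from 5.93 to 6.91.

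Over the 46 hippocampal arrays, Cox8b correlated with the choroid plexus mean at Pearson's r = 0.97 and Spearman's rho = 0.96. Each permutation p was 1e-05, the smallest that 100000 permutations can give, and 3.33e-05 after Benjamini-Hochberg adjustment over 10 relations. Without the 2 arrays farthest from the median r was 0.96, within chips it ran from 0.93 to 1, and within groups from 0.95 to 0.99. Cox6b2 followed at r = 0.89 and rho = 0.89 (adjusted p = 3.33e-05 for both, r = 0.89 without 2 arrays, 0.84 to 0.92 within chips, 0.88 to 0.92 within groups). Cox7a1 followed less closely, at r = 0.78 and rho = 0.81 (adjusted p = 3.33e-05 for both, r = 0.75 without 2 arrays, 0.36 to 0.95 within chips, 0.61 to 0.95 within groups).

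Over all 46 arrays, Cox6a2 had r = -0.01 and rho = -0.1 (permutation p = 0.946 and 0.529), but its r ran from -0.83 to 0.69 within chips and from -0.05 to 0.71 within groups, so the pooled value did not hold in every group or chip. Cox4i2, a lung isoform, had r = 0.23 and rho = 0.14 (permutation p = 0.129 and 0.364). Its r lay between -0.17 and 0.49 within chips and between -0.21 and 0.52 within groups. Cox4i2 was detected on only 10 of 46 hippocampal arrays, so most of its signals were not above background and these values say little. In cortex none of the 5 genes reached an adjusted permutation p under 0.05, Cox7a1 coming closest with r = 0.31 and rho = 0.35 (adjusted p = 0.0852 and 0.0503).

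Of the 8 choroid plexus markers, 0 passed the test in any of the 4 hippocampal comparisons. Their median difference in hippocampus was -0.68 for CD33 ASO against CON ASO, 0.7 for CD33 ASO against PBS, 1.3 for CON ASO against PBS and -1.0 for APP/PS1 PBS against WT PBS. Cox8b differed by -0.57, 0.88, 1.45 and -0.73 in the same 4 comparisons, none past the threshold. With the choroid plexus mean as a covariate, an alternative chosen after seeing the data, these were 0.01, 0.27, 0.26 and 0.23 (adjusted p between 0.392 and 1). Without the doubtful mouse, the first pair of Cox8b differences was -0.54 and 0.91, and 0.01 and 0.27 with the covariate.

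**Figure D5:**
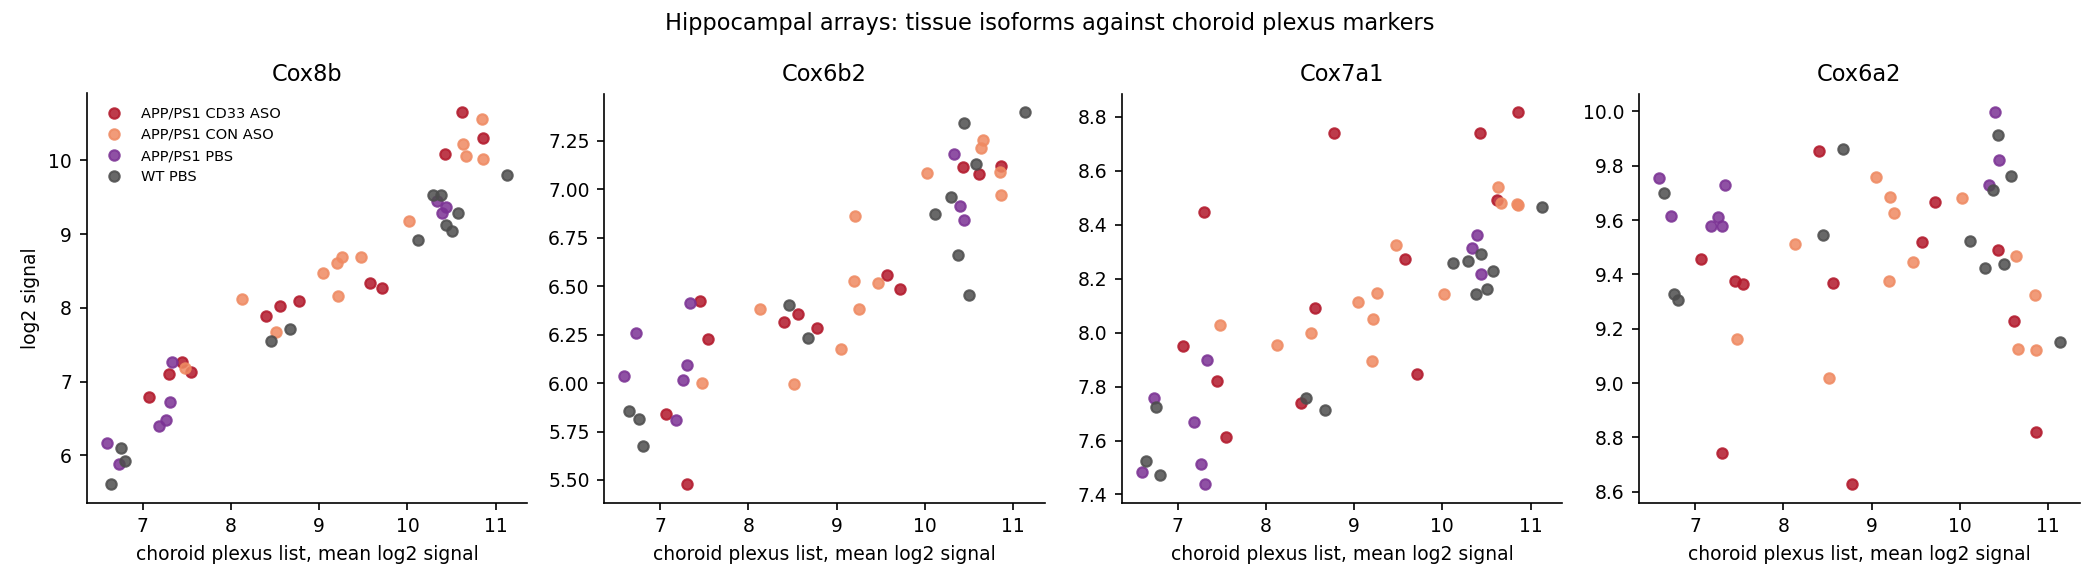
Log2 signal of Cox8b, Cox6b2, Cox7a1 and Cox6a2 against the mean log2 signal of the choroid plexus markers on the 46 hippocampal arrays, coloured by group. Cox8b (r = 0.97), Cox6b2 (0.89) and Cox7a1 (0.78) rise along the axis, while Cox6a2 has a pooled r of -0.01.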

How the data were processed

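Total RNA of each tissue was hybridised to Illumina bead arrays, per the labels. The deposited table gives an intensity and a detection p-value for 25697 probes on each array, per the file headers; intensities below 0 (25.3% of hippocampal and 25% of cortical values) show that a background had been subtracted. BeadStudio, GenomeStudio and Partek were used, per the submitters' processing notes, with no version or role stated. The authors' deposited value table of 17885 probes is on a log2-like scale, with the same median on all arrays of a tissue (7.23 in hippocampus, 7.434 in cortex) and the probe order of the intensities (rank correlation 1); its offset stays unknown, and it served as an alternative.

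From the deposited intensity and p-value, neqc of limma 3.58.1 (R 4.3.3) gave log2 signals per tissue: background from detection p-values, offset 16, quantile normalisation. Probes with detection p under 0.05 on at least 9 arrays were tested with 1 mean per group over all 4 groups (lmFit, eBayes with trend and robust), two-sided, with Benjamini-Hochberg adjustment over all probes. Tissues were compared on a joint normalisation of 91 arrays with the mouse as a random block (correlation 0.169, statmod 1.5.0). "At least" folds used as the dim level, on each array, the lowest signal among detected probes or the signal of the probe itself, whichever was higher. The number of arrays limits precision. The code was tested on simulated data.

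Groups came from the sample titles, which hold 9 APP/PS1 and 12 WT mice with PBS; a protocol text gives 8 and 11. Of the probes, 16814 have 1 symbol, 8883 none and 0 several. Members and lists were chosen with earlier results of these data known, and the alternatives were written down with those results known too. Genes named are members on a set list of subunits and isoforms, that passed in a comparison (up to 12 in each direction), that had the smallest p where fewer than 4 passed, or that stand out within a complex. Promoters were counted with Python 3.11.15. Median within-group SD was 0.115 for members and 0.214 for all probes in hippocampus, and 0.0996 and 0.194 in cortex. Replicate numbers were not treated as pairs in the main fits. Same-numbered arrays of different groups correlated at a mean of 0.13 in hippocampus and 0.09 in cortex, with the lowest at -0.45 and -0.26. Other pairs had a mean of -0.01 in each tissue. Many same-numbered arrays shared a chip, and arrays of different groups on 1 chip correlated at a mean of 0.13 in hippocampus and 0.16 in cortex.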

Additional observations from a re-analysis of the deposited data

Results flagged for a closer look

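In 6 of 104 sets of 9 arrays (a named gene in 1 tissue of the APP/PS1 PBS group), 1 array lay far from the others by Dixon's test; chance flags about 1 in 20 sets. In hippocampus, Atp5pb, a subunit of the ATP synthase stalk, was at 10.78 on replicate 5, with the nearest array at 11.18. On replicate 1, hippocampal Ndufb6 was at 12.74 (nearest 12.52) and hippocampal Sdhc, a membrane anchor of complex II, at 11.65 (nearest 11.36). In cortex, Ndufs4 was at 12.28 on replicate 5 (nearest 11.98), Ndufb6 at 12.51 on replicate 8 (nearest 12.59) and Cox7a1 at 7.43 on replicate 6 (nearest 7.67).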

How the results depend on the processing

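Of the genotype calls in cortex, those of Cox6a2, Sdhaf4 and Atp5o held under all 12 alternatives. Their total (9 of 83) was 15 with median centring, beside 16.4% of all probes. There the members' median was -0.055 and that of all probes -0.029. The total was 18 with the chip as a block (beside 23.7%), 17 with the replicate number as a block (22.6%) and 18 with array weights (26.4%). With the choroid plexus covariate (chosen after seeing the data) it was 5 (19.3%). Leaving out 1 array gave 5 to 13. The count was 5 without WT PBS replicate 2 or APP/PS1 PBS replicate 9 (beside 2505 and 2559 of 14346 probes). The hippocampal total (3) was 1 with median centring (beside 2.12% of all probes) or with no filter (1.16%). It was 9 with the chip as a block (4.78%) and 5 with the compared groups alone (3.67%). Leave-one-out gave 1 to 7. The count was 7 without APP/PS1 PBS replicate 1 (beside 474 of 14449 probes). Without WT PBS replicate 3 it was 5 (402), and without APP/PS1 PBS replicate 7 it was 1 (328). Ndufs4 in hippocampus stood at 0.00 as the mean of its probes. Its 3 other probes, which were less precise, differed by 0.02 ± 0.11, 0.02 ± 0.11 and 0.15 ± 0.16.

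For CON ASO against PBS in cortex (1), the count was 0 with no filter (beside 0.879% of probes). It was 4 with array weights (5.24%) and 0 with the covariate (1.35%). Leave-one-out gave 0 to 2. The count was 0 without APP/PS1 PBS replicate 3, 4, 6 or 8 (beside 317, 233, 302 and 245 of 14346 probes). Without CON ASO replicate 12 it was 2 (586). For CD33 ASO against PBS in cortex (1), the count was 2 with the chip as a block (beside 2.02% of probes). It was also 2 with the day (1.44%) or the replicate number (1.58%) as a block. With the compared groups alone (0.627%) or the covariate (0.467%) it was 0. Leave-one-out gave 0 to 2. The count was 0 without CD33 ASO replicate 8 (beside 115 of 14346 probes) or PBS replicate 8 (149). Without CD33 ASO replicate 5 (233) or 7 (171) it was 2. In hippocampus (0) it was 3 with the chip block (beside 1.27% of probes) and 1 with the replicate block (1.03%). It was 2 with array weights (0.775%) and 2 over mice measured in both tissues (1.75%). Leave-one-out gave 0 to 2. The count was 1 without CD33 ASO replicate 2, 9 or 10 (beside 54, 102 and 125 of 14449 probes). Without CD33 ASO replicate 7 it was 2 (152). The genotype difference between tissues (0) had 1 call with array weights (beside 6.62% of probes). Leave-one-out gave 0 to 1 (1 without hippocampal APP/PS1 PBS replicate 1, beside 576 of 14884 probes). The causes were not tested. The tissue count in WT mice (45) ran from 40 to 46 in leave-one-out. Otherwise it ran from 38 with no filter (beside 31.9% of probes) to 48 with array weights (60.1%). CD33 ASO against CON ASO stayed at 0 in both tissues, as did CON ASO against PBS in hippocampus. Of the same-number pairs, 53 in hippocampus and 36 in cortex also shared a chip. Dim probes limit what can be said of Cox8b and Cox4i2 in cortex, detected on 10 and 14 of 45 arrays. The same holds for Cox4i2 in hippocampus, detected on 10 of 46 arrays.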
